A study of Gallus gallus with 6 samples.

Results

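The lysosome and phagosome mRNAs of rooster liver described here are 19 of the 1480 mRNAs in the deposited table. They carry the lysosome or the phagosome pathway in the KEGG annotation that the authors deposited (16 mRNAs), or were taken by symbol alone among cathepsins, LAMP, LAPTM and ATP6 genes and LIPA (LAMP1, LAPTM4B and ATP6V1G3). Certain immune genes named by the rule (BF1 and TLR4 among them) and symbols of the CD, integrin, thrombospondin, solute carrier and RAB families were left out, which removed 7 of 26 mRNAs. All birds were Arbor Acres breeder roosters. Mature livers came from 3 roosters aged 40 weeks, with 1 liver in each library. Immature livers came from 12 male chicks aged 1 day, with 4 livers pooled in each of 3 libraries. All birds had been fasted for 12 h before the left side of the liver was taken, and RNA depleted of ribosomal RNA was sequenced with strand information. The comparison asks how the transcripts of this degradative system differ between the adult and the newly hatched liver.

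Lysosomes are acidic organelles in which proteases, lipases, glycosidases and other hydrolases break down material that arrives by endocytosis, phagocytosis and autophagy. Proton pumps of the V-ATPase type acidify them, heavily glycosylated LAMP proteins line their membrane, and adaptor complexes sort new enzymes and membrane proteins to them. Phagosomes are vesicles that enclose engulfed particles, move along microtubules, acquire an NADPH oxidase in professional phagocytes and mature by fusing with lysosomes. In liver both hepatocytes and the resident macrophages, named Kupffer cells, use this system.

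The table gives FPKM, the number of sequenced fragments scaled to transcript length and library size, with 1 value for the mature and 1 for the immature group and none per library. No replicate error can therefore be attached to any value, no test between libraries was possible, and the read count behind each value is unknown. The paper reports fewer mapped reads, and a smaller mapped share, for each immature library than for any mature one. Each difference was calculated as the log2(FPKM + 1) of mature livers less that of immature livers, which makes the differences of weakly expressed transcripts smaller than their ratios. The table holds only mRNAs that the authors had called differential, and its smallest absolute log2 ratio of the 2 FPKM values was 1.00. That a listed mRNA differed by so much was thus fixed by the selection, while its direction was not. For lysosome and phagosome genes outside the table nothing can be said, and they do not count as stable. In whole liver, fewer cells of a type and less RNA per cell cannot be told apart. Of 25 hepatocyte markers 6 were listed, 3 higher and 3 lower in mature livers. The apolipoprotein gene apoAIV was higher, with 2544 FPKM in mature and 723 FPKM in immature livers. AHSG was lower, with 269 FPKM in mature and 2625 FPKM in immature livers. The albumin gene ALB was not listed, so the tissue label was checked on these 6 markers alone.

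Most of the lysosome and phagosome mRNAs were listed at a higher level in mature livers. Of the 19, 16 were higher and 3 were lower, which is 84.2% higher, while 54.9% of all 1480 deposited mRNAs were higher and 45.1% were lower. The paper itself reports most of its differential mRNAs as lower in mature livers, so these shares hold for the deposited list only. Of all mRNAs with a KEGG annotation 49.5% were higher, and the 311 of these that are no members were 149 higher and 162 lower. Cathepsin mRNAs, the lipase LIPA, the membrane protein LAMP1, the oxidase subunits and the antigen presentation genes stood on the higher side, and the acid sphingomyelinase gene SMPD1 with the beta-tubulin genes TUBB4B and TUBB3 on the lower side. The median difference was 1.54 over the 19 mRNAs and 0.64 over all mRNAs of the table. The median of the members is the value of ATP6V1G3, which is set against a listed 0. Without members listed at 0 it was 1.5. By the selection few mRNAs lay near 0: 52.7% of all were higher and 44.0% lower by over 0.5. A median of such values follows the shares in each direction, and these medians do not compare sizes of change. All 19 differed by over 1 on log2(FPKM + 1), 16 up and 3 down. Over the 1480 mRNAs 65.7% did, with 35.9% of the 1480 higher and 29.8% lower. Since every listed mRNA had an absolute log2 ratio above 1 before the pseudocount was added, passing 1 on this scale depends on the expression level, which was higher for the members, and the shares do not compare sizes of change. With differences centred on the median of all mRNAs, 8 members were higher by over 1, as were 15.0% of all mRNAs. A change of direction was not possible here, since every member differed by over 1 and the shift was that median of 0.64.

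**Figure D1:**
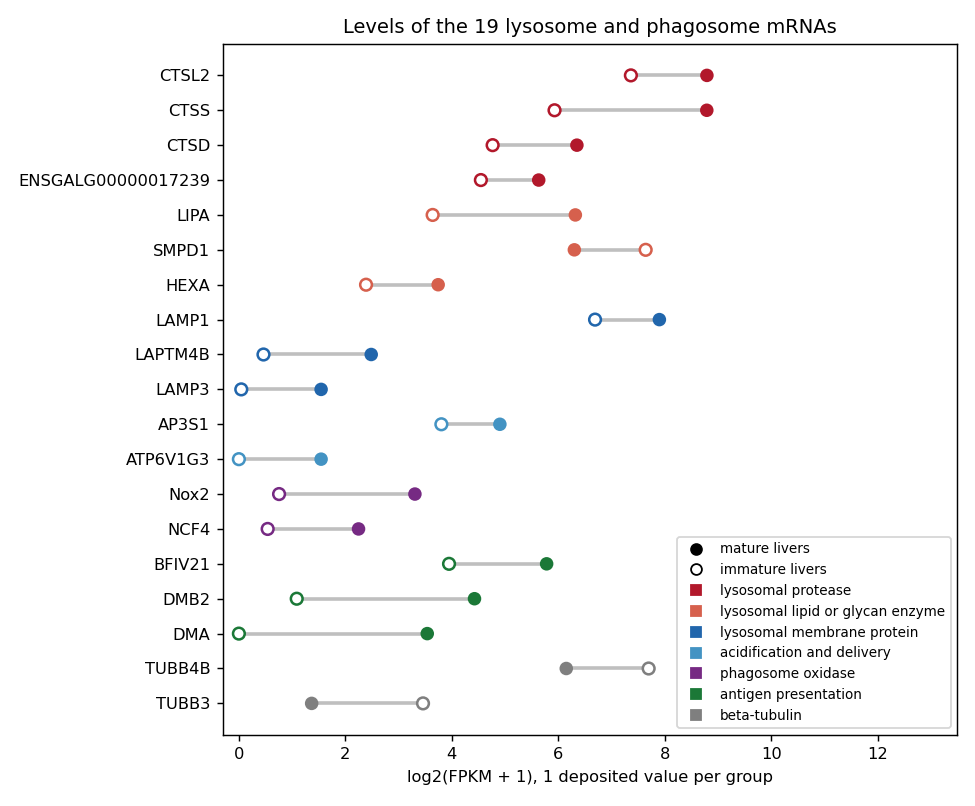
Levels of the 19 lysosome and phagosome mRNAs as log2(FPKM + 1), with filled points for mature and open points for immature livers, 1 deposited value per group and therefore no error bars. The filled point lies to the right for 16 mRNAs and to the left for SMPD1, TUBB4B and TUBB3, and the open points of DMA and ATP6V1G3 lie at 0.

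The members that encode lysosomal proteases, 4 in number, were all higher in mature livers. CTSL2, a cathepsin L-type cysteine protease that RefSeq now names CTSV and that the table describes as cathepsin L1, was listed at 443 FPKM in mature and 164 FPKM in immature livers (log2 difference 1.43; chromosome Z, 41267478 to 41272899). CTSS, encoding cathepsin S, a cysteine protease of antigen-presenting cells that trims the invariant chain of class II molecules in mammals, was listed at 442 FPKM in mature and 60.0 FPKM in immature livers (2.86; chromosome 25, 1700502 to 1705069). In mature livers the pair thus stood at nearly the same level, with a ratio of CTSL2 to CTSS of 1.00, while the ratio was 2.73 in immature livers.

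CTSD, the gene of the aspartic protease cathepsin D, was listed at 80.6 FPKM in mature and 26.2 FPKM in immature livers (1.58; chromosome 5, 13503171 to 13518519). The unnamed gene ENSGALG00000017239, annotated with cysteine-type peptidase activity, was listed at 48.6 and 22.4 FPKM in mature and immature livers (1.09; chromosome 1, 187466609 to 187482868). Positions are given as deposited, and their genome build is not stated. The protease mRNAs summed to 1014 FPKM in mature and 272 FPKM in immature livers. They made up 62.3% of the summed FPKM of the 19 mRNAs in mature livers and 32.6% in immature livers. CTSL2 and CTSS alone made up 54.3% of that sum in mature and 26.8% in immature livers. Of the 25 symbols in the list of lysosomal proteases, which holds older names too, CTSL2, CTSS and CTSD were listed.

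The mRNAs for enzymes of lipid and glycan breakdown went in both directions. LIPA, the lysosomal acid lipase that releases cholesterol and fatty acids from lipoproteins taken up by the cell, was listed at 79.0 FPKM in mature and 11.5 FPKM in immature livers (2.68; chromosome 6, 18879965 to 18892422). SMPD1, the acid sphingomyelinase that turns sphingomyelin into ceramide, was listed at 77.9 FPKM in mature and 199 FPKM in immature livers (-1.34; chromosome 1, 193606070 to 193608712). The mRNAs of these enzymes were listed at nearly equal levels in mature livers. SMPD1 had 0.987 times the FPKM of LIPA there, against 17.3 times in immature livers.

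HEXA, the alpha subunit of beta-hexosaminidase, which cleaves amino sugars from gangliosides and other glycans, was listed at 12.4 FPKM in mature and 4.24 FPKM in immature livers (1.35; chromosome 10, 1119691 to 1128948). GM2A, which is no member by the KEGG annotation and encodes the activator protein that presents the ganglioside GM2 to beta-hexosaminidase A, was listed at 69.8 FPKM in mature and 11.4 FPKM in immature livers (2.52). The other listed genes of the list of lysosomal lipid enzymes, saposins and nucleases were also higher in mature livers, among them the phospholipase genes PLA2G15 (6.38 and 2.10 FPKM in mature and immature livers) and PLBD1 (3.70 and 0.365 FPKM in mature and immature livers). In all, 6 of the 20 genes of this list were listed, 5 higher and SMPD1 lower. HGSNAT, an acetyltransferase of heparan sulfate breakdown, was the only listed gene besides HEXA among 31 symbols for carbohydrate enzymes, at 19.1 FPKM in mature and 9.37 FPKM in immature livers.

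Genes of the lysosomal membrane covered a wide range of levels. LAMP1, the abundant glycoprotein of the lysosomal membrane, was listed at 238 FPKM in mature and 102 FPKM in immature livers (1.21; chromosome 1, 136801887 to 136848550). LAPTM4B, a membrane-spanning protein of late endosomes and lysosomes, was listed at 4.60 and 0.378 FPKM in mature and immature livers (2.02; chromosome 2, 127102613 to 127165676). LAMP3, which in mammals marks mature dendritic cells, was listed at 1.92 and 0.0316 FPKM in mature and immature livers (1.5; chromosome 9, 15845861 to 15861932). LAMP1 was therefore well detected in both groups, while the immature values of LAPTM4B and LAMP3 lay below 1 FPKM.

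Because of these low values the size of their differences rested on the pseudocount. With a pseudocount of 0.1 in place of 1 the log2 difference of LAMP3 was 3.94 and that of LAPTM4B was 3.30, while that of LAMP1 was 1.22. Of 29 genes of the lysosomal membrane list 6 were listed, the 3 members together with LITAF higher in mature livers, and CLN6 and TMEM192 lower. CLN6, whose human counterpart is mutated in a neuronal ceroid lipofuscinosis, was listed at 6.65 FPKM in mature and 13.96 FPKM in immature livers. It stands in this list although its product is a protein of the endoplasmic reticulum membrane, not of the lysosomal membrane.

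A single V-ATPase gene of 25 was listed. ATP6V1G3, a G subunit of the cytosolic V1 sector, was listed at 1.92 FPKM in mature livers and at 0 in immature livers (1.54; chromosome 8, 2100044 to 2111059), so that no ratio is given. In mammals this isoform is known mainly from kidney. The other pump subunits have no value here. AP3S1, the small sigma subunit of the AP-3 adaptor complex that carries membrane proteins to lysosomes, was listed at 28.9 FPKM in mature and 13.0 FPKM in immature livers (1.10; chromosome Z, 72727213 to 72756257). AP1S2, the sigma subunit of another adaptor complex, was the only other listed gene among 39 of enzyme delivery and vesicle coats, at 4.91 FPKM in mature and 0.365 FPKM in immature livers.

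**Figure D2:**
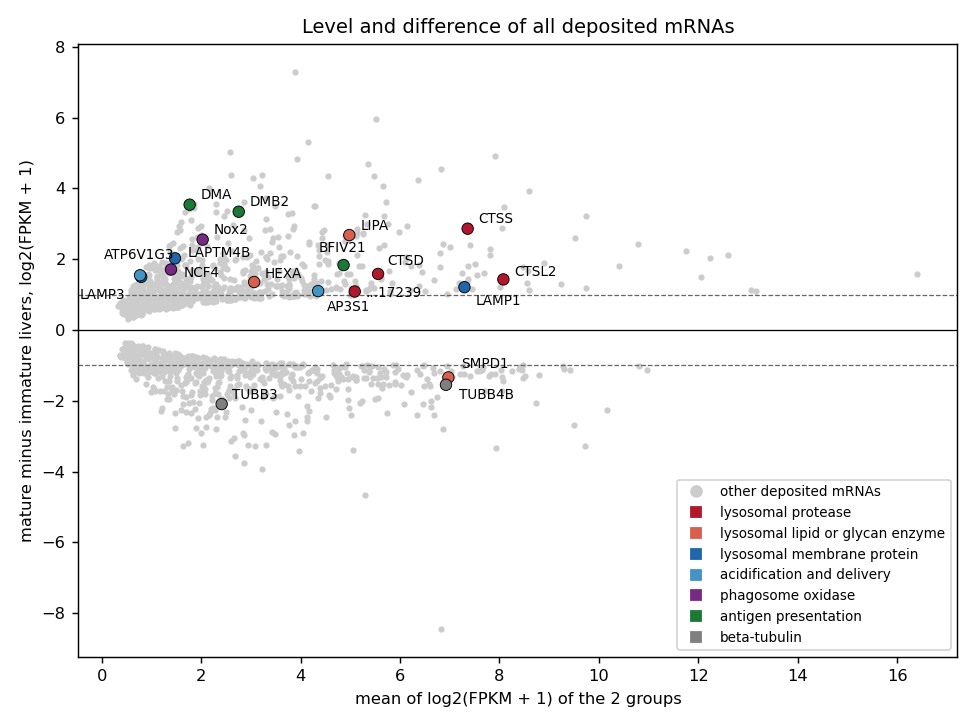
Difference between mature and immature livers on log2(FPKM + 1) against the mean of the 2 group values, for the 19 members (coloured by role, ENSGALG00000017239 shortened to its last digits) and the other 1461 deposited mRNAs (grey), with dashed lines at differences of 1 and -1. The members lie outside the dashed lines, from ATP6V1G3 and LAMP3 at low levels to CTSL2 at the highest mean level of the members.

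The phagosome NADPH oxidase was represented by its catalytic and a cytosolic subunit. Nox2, which RefSeq names CYBB and which encodes the membrane subunit that transfers electrons to oxygen to make superoxide, was listed at 8.90 FPKM in mature and 0.688 FPKM in immature livers (2.55; chromosome 1, 112489647 to 112512000). NCF4, the cytosolic subunit that binds phosphatidylinositol 3-phosphate on the phagosome, was listed at 3.75 FPKM in mature and 0.455 FPKM in immature livers (1.71; chromosome 1, 51419977 to 51430300). Both lay below 1 FPKM in immature livers, and with a pseudocount of 0.1 their differences were 3.51 and 2.79. Further parts of this enzyme that are no members were listed on the same side. CYBA, the partner of the catalytic subunit in the membrane, was listed at 26.9 FPKM in mature and 11.9 FPKM in immature livers, and RAC2, the small GTPase that activates the oxidase in blood cells, at 46.0 FPKM in mature and 7.91 FPKM in immature livers. Of 17 genes in the list of oxidase and killing functions 5 were listed, all higher in mature livers. The 1 not named above, TAP1, belongs to antigen presentation and is no part of the oxidase. It was listed at 1.86 FPKM in mature and 0.0839 FPKM in immature livers, at a locus shared with BF1.

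The KEGG phagosome pathway also holds genes of antigen presentation by the major histocompatibility complex, and 3 of them remained after the exclusions. BFIV21, a class I alpha chain that RefSeq names BF2, was listed at 54.0 FPKM in mature and 14.4 FPKM in immature livers (1.83; chromosome 16, 59612 to 62099). DMB2 and DMA encode the beta and alpha chains of the DM molecule, which exchanges peptides on class II molecules inside lysosome-like compartments. DMB2 was listed at 20.5 and 1.12 FPKM in mature and immature livers (3.34; chromosome 16, 76298 to 79327). DMA was listed at 10.6 FPKM in mature livers and at 0 in immature livers (3.54; chromosome 16, 79574 to 103266). On log2(FPKM + 1) DMA and DMB2 had the largest differences of the 19 members. With a pseudocount of 0.1 in place of 1 DMA stayed the largest, at 6.745. The place of DMB2 rested on the pseudocount, since with 0.1 its difference was 4.07 and that of ATP6V1G3 was 4.33. Both DMA and ATP6V1G3 are set against a listed 0.

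The values of these genes are uncertain in their counting. The locus deposited for DMA is shared with 2 other listed mRNAs, BLB1 and TPN, and class I and class II genes of this region have near-identical relatives among which reads can be split. An exact 0 in a table without counts, as for DMA and ATP6V1G3, can also be a failed estimate, and 5 mRNAs were listed at 0 in mature and 9 in immature livers, among the 9 the broadly expressed actin-regulating gene TWF1. Without BFIV21, DMA and DMB2 the remaining 16 members were 13 higher and 3 lower, with a median difference of 1.46.

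The beta-tubulin genes, whose products form the microtubules along which phagosomes move, were both lower in mature livers. TUBB4B was listed at 70.0 FPKM in mature and 206.8 FPKM in immature livers (-1.55; chromosome 17, 1864288 to 1873939). TUBB3 was listed at 1.58 and 9.999 FPKM in mature and immature livers (-2.09; chromosome 11, 18290820 to 18292152). The table describes the TUBB4B mRNA as tubulin beta-3 chain and the TUBB3 mRNA as tubulin beta-4 chain. These names follow an older chicken numbering and do not conflict with the symbols. Beta-tubulins are a family of similar genes among which reads can be split. The only other listed gene of 30 for the cytoskeleton and motors of phagosomes, the dynein chain gene DYNC1I1, was lower as well, with 0.107 FPKM in mature and 1.44 FPKM in immature livers.

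Cell division genes moved with the tubulins. Of 20 markers of proliferating cells 14 were listed, all lower in mature livers, with a summed level of 15.1 FPKM in mature and 172 FPKM in immature livers, and their part in the tubulin values was not tested. SMPD1, TUBB4B and TUBB3 together made up 9.19% of the summed FPKM of the 19 members in mature livers and 49.7% in immature livers. Their share had to be smaller in mature livers, since they are the members that were lower there. Without the tubulins 16 of the 17 remaining members were higher, while 54.9% of all mRNAs were. Leaving out genes that were lower could only raise the share of the members.

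The order of the members by level also differed between the groups. In mature livers the sequence began with CTSL2, CTSS, LAMP1, CTSD and LIPA, while in immature livers it began with TUBB4B, SMPD1, CTSL2, LAMP1 and CTSS. Whether neighbours in either order differ beyond the spread of libraries cannot be said from 1 value per group. The members were listed at higher levels than the table as a whole, with a median of 28.9 FPKM in mature and 11.5 FPKM in immature livers, while the medians of all deposited mRNAs were 3.71 and 3.25 FPKM in mature and immature livers. None of the 19 lay below 1 FPKM in mature livers and 6 (31.6%) did in immature livers, while 19.9% of all mRNAs did in mature and 26.8% in immature livers.

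By annotation, the 9 members with the lysosome pathway were 8 higher and 1 lower in mature livers, and the 9 with the phagosome pathway were 7 higher and 2 lower. CTSS and CTSL2 carry both. Of all mRNAs 54.9% were higher, and of those with a KEGG annotation 49.5%. The median difference was 1.43 for the lysosome pathway and 1.83 for the phagosome pathway. The 7 mRNAs left out by symbol were 5 higher and 2 lower (a median difference of 1.496). Lysosome and phagosome terms of the Gene Ontology in the deposited table, a search added after the values were seen, marked 32 mRNAs that are no members. Of these 25 were higher and 7 lower in mature livers, with a median difference of 0.96, while 54.9% of all mRNAs were higher. The search also matched autophagosome terms, and the autophagy genes ATG12 and BECN1 are among the 32. The 32 also overlap with the mRNAs left out by symbol. Only 6 of the 19 members carried a matched term.

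Genes that control lysosome formation were listed in both directions. MITF, a transcription factor of the family that in mammals drives lysosomal genes, was listed at 2.27 FPKM in mature and 0.687 FPKM in immature livers (0.95). RRAGD, a GTPase that places the nutrient-sensing kinase complex on the lysosome, was listed at 4.01 and 1.69 FPKM in mature and immature livers (0.89). FNIP2, a partner of folliculin in the same pathway, was lower, with 5.70 FPKM in mature and 13.0 FPKM in immature livers (-1.07). These were the listed genes of 23. Of 36 autophagy genes 2 were listed, ATG12 and BECN1, both higher in mature livers, ATG12 with 3.71 FPKM in mature and 1.64 FPKM in immature livers. No gene of the list of 28 phagosome receptors and opsonins was listed, but that list does not hold the receptors ITGB2 and TLR4 and the bridging protein THBS1, which the rule left out by symbol and which were higher in mature livers, nor TIMD4 and C1QA, which stand among the macrophage markers. VPS33B, a vesicle tethering protein, was the only listed gene of 21 for fusion and membrane traffic, at 5.42 FPKM in mature and 15.4 FPKM in immature livers.

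Markers of macrophages were higher in mature livers beside the protease, oxidase and antigen presentation genes. Of 21 markers of macrophages and Kupffer cells 8 were listed, all higher, with a summed level of 862 FPKM in mature and 137 FPKM in immature livers. CTSS and Nox2 are themselves in that list. Without them the sum of the other 6 was 411 FPKM in mature and 76.2 FPKM in immature livers, a ratio of 5.40. The same ratio was 7.37 for CTSS, 6.89 for LIPA, 2.70 for CTSL2 and 2.32 for LAMP1. It was larger for LAMP3 (60.6), DMB2 (18.2), Nox2 (12.9), LAPTM4B (12.2) and NCF4 (8.24), each with an immature value of 1.12 FPKM or less. The remaining members with a ratio lay below 5.40, from 3.74 for BFIV21 to 0.158 for TUBB3. C1QA, a complement component made by macrophages, was listed at 268 FPKM in mature and 49.0 FPKM in immature livers. This was most of the sum of these 6 markers in each group, so the ratio of 5.40 rests largely on C1QA. The markers differed among themselves. CSF1R was listed at 51.5 FPKM in mature and 13.2 FPKM in immature livers, and TLR4 at 2.66 FPKM in mature and 0.297 FPKM in immature livers. A member ratio above or below 5.40 therefore does not by itself place that member outside the range of the markers. No listed macrophage marker was at 0 in either group. Their part in the member values was not tested.

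Markers of other blood cells moved as well. The 5 listed of 16 heterophil markers were higher, with sums of 143 FPKM in mature and 12.1 FPKM in immature livers, and so were the 9 listed of 20 T and natural killer cell markers, with sums of 113 FPKM in mature and 11.8 FPKM in immature livers, while after centring on the median of all mRNAs 4 of the 5 and 8 of the 9 were higher. The 3 listed of 22 erythroid markers were lower, with sums of 7.98 FPKM in mature and 41.2 FPKM in immature livers. Most of both sums came from TFRC alone, at 7.33 FPKM in mature and 35.7 FPKM in immature livers. Of stellate cell markers 2 of 15 were listed, 1 higher and 1 lower, and of endothelial markers 3 of 13, 2 higher and 1 lower, while no cholangiocyte marker of 10 was listed. The part of these cells in the member values was not tested either.

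**Figure D3:**
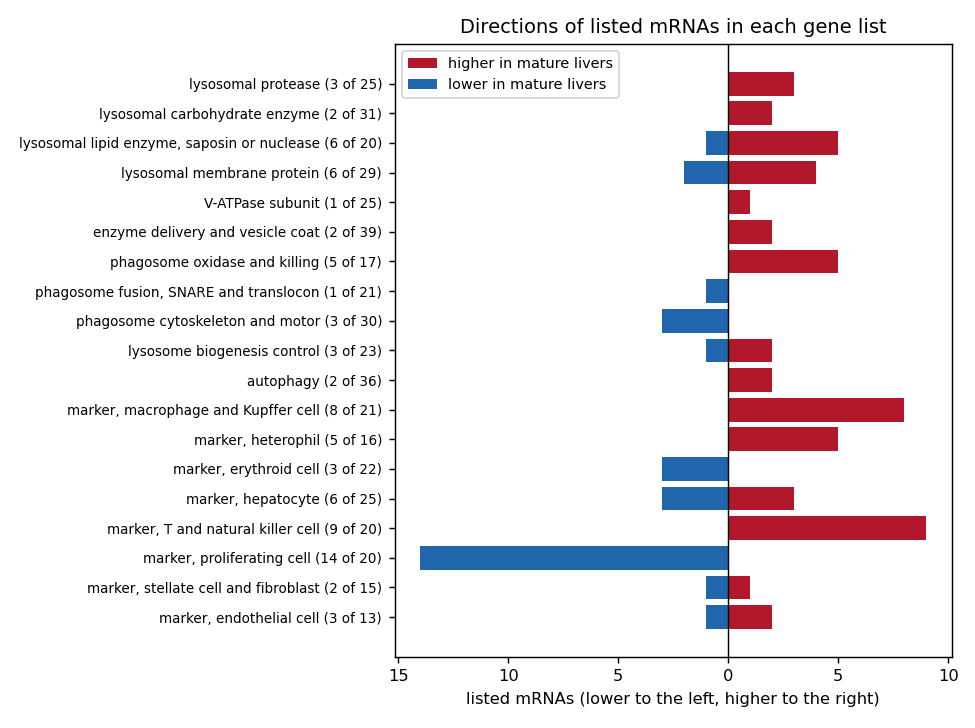
Number of listed mRNAs higher (right, red) and lower (left, blue) in mature livers for each gene list with a listed gene, with the listed and total number of symbols in parentheses. Macrophage, heterophil and T cell markers have bars to the right only (8, 5 and 9 mRNAs, of which 8, 4 and 8 are higher after centring on the median of all mRNAs) and proliferation markers to the left only (14 mRNAs).

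The members lie on 12 chromosomes as the table gives them. Chromosome 1 holds 5 members and 15.4% of all mRNAs in the table. Chromosome 16, which carries the major histocompatibility complex of chicken, holds BFIV21, DMA and DMB2 and 0.811% of all mRNAs. The other 9 mRNAs listed on chromosome 16 were 8 higher and 1 lower in mature livers. The locus of AP3S1 lies 25 bases from that of the autophagy gene ATG12 on chromosome Z, and both mRNAs were higher in mature livers. NCF4 lies 2894 bases from CSF2RB, a cytokine receptor chain, which was listed at 3.90 FPKM in mature and 0.370 FPKM in immature livers. SMPD1 lies 6587 bases from HPX, the gene of the heme carrier hemopexin, which went the other way, with 7144 FPKM in mature and 2521 FPKM in immature livers.

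Listed lncRNAs lay within 100 kb of 4 members, Nox2, BFIV21, DMA and DMB2, which is 21.1% of the members, while 13.8% of all deposited mRNAs had such a neighbour. The intergenic lncRNA TCONS_00008518 lies 233 bases from the locus of Nox2 (chromosome 1, 112488720 to 112489414) and was listed at 1.24 FPKM in mature and 0.0482 FPKM in immature livers. The chromosome 16 members share their neighbours, the lncRNAs TCONS_00020482 and TCONS_00020481 antisense to Blec1 (chromosome 16, 103402 to 106726), which lie 136 bases from the locus of DMA. TCONS_00020482 was listed at 6.28 FPKM in mature and 0.163 FPKM in immature livers, and TCONS_00020481 at 0.799 and 0.148 FPKM in mature and immature livers. All 3 lncRNAs were listed higher in mature livers, and TCONS_00020482 and TCONS_00020481 share a locus. The share of all listed lncRNAs that were higher was not calculated, so nothing particular to the members can be read from these directions.

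**Figure D4:**
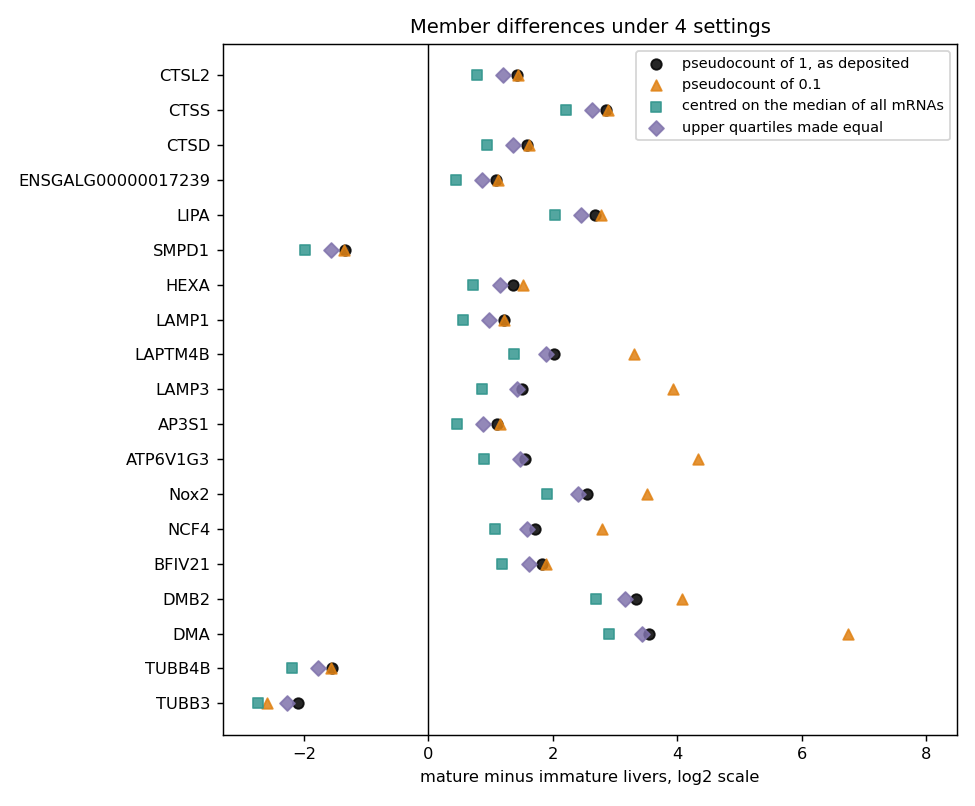
Differences between mature and immature livers for each of the 19 members on a log2 scale under 4 settings: a pseudocount of 1 on the deposited values, a pseudocount of 0.1, centring on the median difference of all mRNAs, and equal upper quartiles of the groups. Every member keeps its side of 0, which a pseudocount cannot change and which the shifts by scaling were too small to change. The orange triangles of LAMP3, ATP6V1G3, DMA, LAPTM4B, Nox2 and NCF4 lie far to the right of the black points.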

How the data were processed

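Livers of mature and immature roosters were sequenced in 6 libraries, 3 per group. The authors' deposited tables give FPKM, with 1 value per group, for 1480 mRNAs and 622 lncRNAs that the authors had called differential. The numbers of differential mRNAs and lncRNAs in the results of the paper differ from these, as does the balance of directions of the mRNAs. The tables also hold the authors' own log2 fold changes, calls and p-values, which were not used. Tools listed by the submitters' processing notes, without roles, are Bowtie2 2.0.6, TopHat, Cufflinks, Cuffdiff, DESeq and FastQC, and the study's methods credit FPKM to StringTie. The study's methods map reads to the Galgal5 genome, and whether the deposited loci are on that build is not stated.

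Differences were taken as mature minus immature livers on log2(FPKM + 1) with Python 3.11.15, pandas 2.3.3 and NumPy 2.4.6, and figures were drawn with Matplotlib 3.10.9. The counts and the membership rule were tested on simulated data. No test was made, since the tables hold no values per library, and counts past a difference of 1 describe sizes only. Symbols were matched to RefSeq (assembly GRCg7b, names only) for 1193 mRNAs by symbol and 85 by a synonym, and for 18 of the 19 members. Sequences of members were not used here. Every member was named, and of the gene lists at most the 3 other genes with the highest FPKM; CSF2RB, HPX, BLB1, TPN, TWF1, ITGB2, TLR4, THBS1 and the lncRNAs were chosen after their values were seen. The members and lists were chosen with earlier results of these data known. As alternatives, pseudocounts of 0.1 and 0.01 or none were tried, as were a minimum mean of 1 FPKM, scaling of the groups, thresholds of 0.5 and 2, windows of 50 and 10 kb, and other member rules.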

Additional observations from a re-analysis of the deposited data

How the results depend on the processing

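The direction of each of the 19 members was the same under all 8 settings in which it had a value, so that 16 were higher and 3 lower wherever all were kept. None of these settings could have reversed a direction. A pseudocount or a dropped mRNA cannot change a sign, and the shifts by scaling were smaller than the smallest member difference of 1.09. The median difference of 1.54 became 1.90 with a pseudocount of 0.1 and of 0.01, 1.62 without a pseudocount, 1.58 with a minimum mean of 1 FPKM, 1.42 with equal upper quartiles (which moved the median of all mRNAs by -0.123) and 0.90 with centring on the median of all mRNAs (a shift of -0.644). Of the 16 higher members past a difference of 1, 13 were left with equal upper quartiles and 8 with centring, where 28.0% and 15.0% of all mRNAs were higher by over 1. At a threshold of 2 in place of 1, 6 higher and 1 lower members passed (31.6% and 5.26%), as did 9.46% and 5.34% of all mRNAs. Settings chosen after the data were seen gave a median of 1.52 with the mRNAs left out by symbol, where 5 mRNAs were lower, 1.46 without BFIV21, DMA and DMB2, and 1.5 without mRNAs listed at 0. Within 10 kb, 2 members (10.5%) had a listed lncRNA and 7.03% of all mRNAs did, and within 50 kb 4 members (21.1%) and 9.39% of all mRNAs did. No paired analysis was possible because the columns hold 1 value per group, and no library could be left out for the same reason. The promoter motif comparison was not run. Values below 1 FPKM set the limit, since their precision is unknown.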
